A study of Homo sapiens with 6 samples.

Results

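The FKBP5 locus was taken as the stretch of chromosome 6 from 35490000 to 35750000 (hg19, counted from 1), which covers the FKBP5 gene and about 50 kb on each side. Its members are the glucocorticoid receptor (GR) peaks whose centres lie in this window of 260 kb. In the 12 peak lists of the series these were 75 of 116356 peaks, and merging overlapping peaks gave 17 sites, of 43893 sites in all. The peaks come from ChIP-seq with an antibody against GR in a pair of stable lines made from U-2OS, a human osteosarcoma line. The groups were the MR/GR cell, in which the mineralocorticoid receptor (MR) is present together with GR, and the GR cell, each treated for 2 hr with 100 nM dexamethasone (DEX), a synthetic agonist of GR, and the same lines given the vehicle DMSO. Each group had 3 numbered lists, and each receptor combination was 1 line, so a difference between the lines cannot be told apart from other differences between those lines. Whether the numbered lists are separate cultures is not given, so the spread between them, which the p-values measure, may be technical.

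FKBP5 encodes FKBP51, a co-chaperone that joins HSP90 in the complexes that hold steroid receptors before hormone binds. It lowers the affinity of GR for hormone, and since active GR raises FKBP5 transcription, the gene forms a short feedback loop on the receptor. It is among the genes most regularly induced by glucocorticoids across tissues, and hormone response elements are known in several of its introns and upstream of it. MR is activated by aldosterone and by glucocorticoids and recognises the same DNA element as GR.

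RefSeq (GRCh38.p14) places FKBP5 on the minus strand, so that higher coordinates lie upstream, with TULP1 as the next protein-coding gene past its 3′ end and ARMC12 as the next one upstream. It lists 2 start sites. The sequences from 250 bases before each start to base 20 of the transcript are shown because they hold the start sites of the gene whose surroundings were searched for peaks. Capitals mark the receptor half-element, spelled AGAACA or, when read on the other strand, TGTTCT.
FKBP5 upstream start: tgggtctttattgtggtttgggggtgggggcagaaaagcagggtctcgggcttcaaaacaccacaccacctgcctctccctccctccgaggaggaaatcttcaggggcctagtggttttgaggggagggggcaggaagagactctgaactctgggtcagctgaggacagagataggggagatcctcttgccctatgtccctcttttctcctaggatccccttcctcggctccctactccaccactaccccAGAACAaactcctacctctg
FKBP5 inner start: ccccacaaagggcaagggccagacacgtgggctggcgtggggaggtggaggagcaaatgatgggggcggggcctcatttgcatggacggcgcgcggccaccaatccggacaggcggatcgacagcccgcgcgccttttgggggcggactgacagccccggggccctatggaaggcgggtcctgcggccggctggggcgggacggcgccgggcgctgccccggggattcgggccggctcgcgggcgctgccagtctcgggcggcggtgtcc
The upstream promoter held 1 half-element, which begins at base 1 of the transcript, and the inner promoter held none. A half-element was present in 13.4% of 35116 RefSeq promoters of this length. The full element, AGAACA followed by any 3 bases and then TGTTCT, which contains the half-element at each end, was in neither FKBP5 promoter and in 1 promoter of that table. The inner promoter is the more GC-rich, with 74.8% G and C and 32 CG dinucleotides, against 56.7% and 3 in the upstream one. These promoters carry coordinates of another build than the peaks and were not overlaid on them. Sites are therefore placed against the gene body that the window implies, from about 35540000 to about 35700000, and the intron of each site was not determined here.

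After DEX the FKBP5 window carried a compact group of sites near the upstream end of the gene and a looser group toward the 3′ end. A long stretch between them had few sites of the MR/GR cell. Sites are numbered 1 to 17 by rising coordinate, from the 3′ flank to the upstream flank. Of the 17, the treated lists of the MR/GR cell had 11 in at least 1 list and 10 in at least 2, and those of the GR cell had 16 and 14.

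At the upstream end, 5 sites called in all 6 treated lists lay within 16.4 kb. They were site 12 (35683172 to 35683595), site 13 (35690222 to 35690648), site 14 (35693394 to 35693817), site 15 (35695681 to 35696104) and site 16 (35699545 to 35700042). Their median centres were 7.02, 3.21, 2.29 and 3.92 kb apart, in that order. Each of the 6 treated lists had its own peak at each of the 5 sites, so these are separate calls. Within single treated lists the closest centres were 2278 to 2313 bp apart in the window. Anywhere in the series they were 567 to 811 bp apart. Site 16 ended the group near the approximate upstream end of the gene. That end is known only from the flank of about 50 kb, so which sites of the group lie inside the gene was not determined.

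Toward the 3′ end, 3 further sites were called in all 6 treated lists. These were site 4 (35558346 to 35558769), site 6 (35569653 to 35570076) and site 7 (35578671 to 35579126), with 11.3 and 9.0 kb between neighbours. A single site of the MR/GR cell, site 5 (35564471 to 35564754), lay between the first pair and was called in treated list 2 of that line and in no GR-cell list.

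Sites 7 and 12 bound a stretch of 105 kb with no site in all 6 lists. It held site 8 (35607873 to 35608314), called in lists 2 and 3 of the treated MR/GR cell and in all 3 of the treated GR cell. It also held 3 sites of the GR cell alone. Site 10 (35630801 to 35631316) was in 3 GR-cell lists, site 11 (35678145 to 35678527) in lists 1 and 2, and site 9 (35614382 to 35614735) in list 1. No list had a peak over the 47.3 kb from the centre of site 10 to that of site 11. Site 3 (35545229 to 35545582), at the 3′ end of the gene, was also in GR-cell list 1 alone.

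In the flanks, the upstream side held 1 site and the 3′ side 2. Site 17 (35746195 to 35746618), 46.6 kb upstream of site 16, was in all 6 treated lists. On the 3′ side, site 2 (35509757 to 35510239) was in 3 GR-cell lists and site 1 (35492148 to 35492513) in lists 1 and 2, and neither was in a list of the MR/GR cell.

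**Figure D1:**
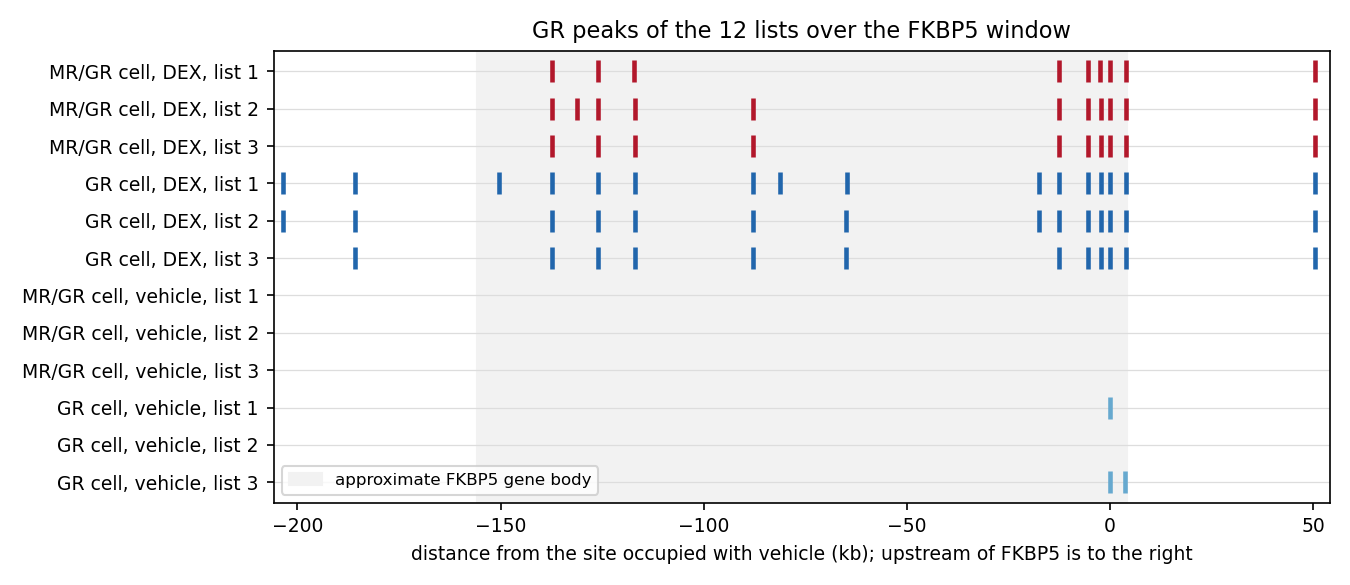
Peaks of each of the 12 lists (rows) by distance in kb from site 15, the site also called with vehicle in 2 GR-cell lists, with one mark per peak centre (not drawn to peak width) and the approximate gene body shaded. The 5 sites at the upstream end and the 3 toward the 3′ end line up across all 6 treated lists, while marks of the GR cell alone lie between these groups and to the left of them.

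The study's title names the comparison of the lines after ligand. The treated MR/GR cell had 9, 11 and 10 peaks in the FKBP5 window, and the treated GR cell had 16, 14 and 12. Each MR/GR-cell list was below each GR-cell list, although the closest pair differed by 1 peak. The mean was 10.0 ± 1.00 peaks in the MR/GR cell and 14.0 ± 2.00 peaks in the GR cell (SD, n = 3 lists each). On the log2(peaks + 1) scale the difference was -0.44 (SE 0.14), or 1.36-fold fewer in the MR/GR cell, and an exact permutation test (two-sided) gave p = 0.1, which is the floor for 3 lists against 3. It was -0.76 with 100 kb on each side of the gene. Outside the window the same lists differed by -2.30 (SE 0.46, exact permutation p = 0.1, two-sided), or 4.91-fold fewer in the MR/GR cell.

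Set against the length of each list, the FKBP5 window had a higher share of the peaks in every treated MR/GR-cell list than in any treated GR-cell list. It held 0.242%, 0.105% and 0.150% of the peaks in the 3 treated MR/GR-cell lists, which ran from 3713 to 10459 peaks. The shares in the 3 treated GR-cell lists, of 26191 to 37650 peaks, were 0.0425%, 0.0453% and 0.0458%. The mean share was 0.166% ± 0.0700 in the MR/GR cell and 0.0445% ± 0.00178 in the GR cell (SD over 3 lists in each line), a ratio of 3.73. The difference of 0.121 percentage points (SE 0.0404) had an exact permutation p of 0.1 (two-sided), the floor again. Within the MR/GR cell the share was highest in the shortest list and lowest in the longest. The part that list length or sequencing depth plays in this share was not tested, since the lists carry no depth.

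**Figure D2:**
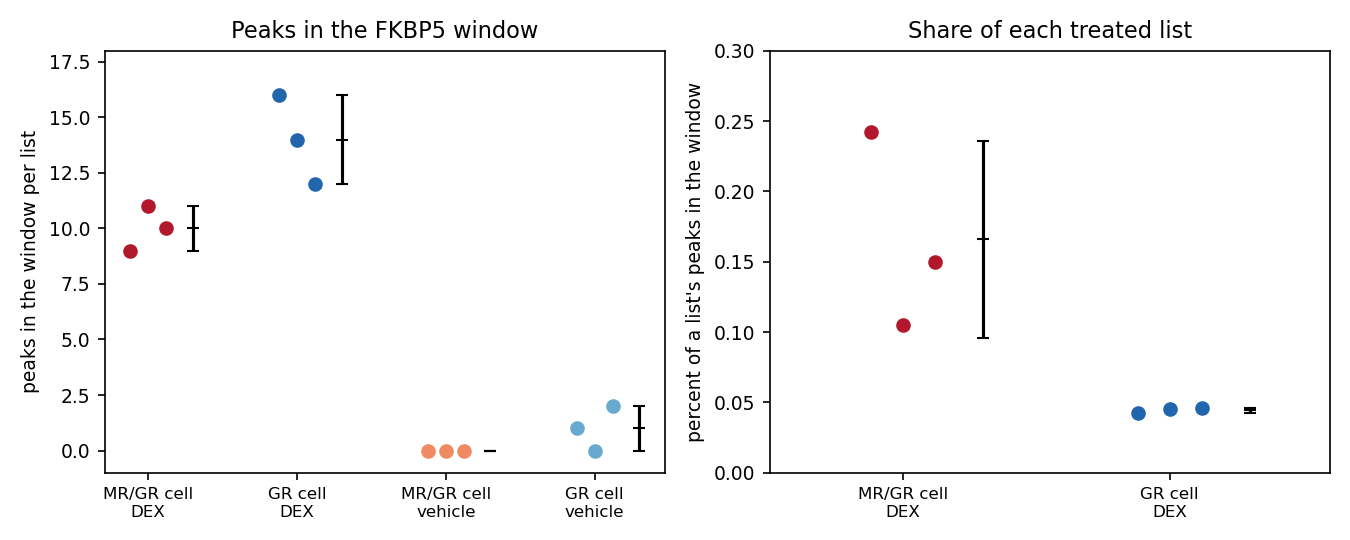
Left, peaks in the FKBP5 window in each list of the 4 groups, and right, the percent of each treated list's peaks that lie in the window. Points are lists, and the bar beside them is the mean ± SD (n = 3). Treated MR/GR-cell lists sit between 9 and 11 peaks and treated GR-cell lists between 12 and 16, and the order of the lines is the opposite in the right panel.

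Most FKBP5 sites of the GR cell were also sites of the MR/GR cell, where a site counts as held by a line with a peak in at least 2 of 3 treated lists. Of the 14 sites held by the GR cell, the MR/GR cell held 10, or 71.4% (Wilson 95% interval 45.4 to 88.3, counting error over sites only). Over the series this share was 17.9% of 30365 GR-cell sites. The 10 sites (4, 6, 7, 8 and 12 to 17) are all of the sites that the MR/GR cell held here, while 90.9% of its sites over the series were GR-cell sites. By list, MR/GR-cell lists 1, 2 and 3 had 9, 10 and 10 of the 14 FKBP5 sites (64.3%, 71.4% and 71.4%), against 11.4%, 25.4% and 19.6% of the 30351 GR-cell sites elsewhere. Of the 10 shared sites, list 1, the list with the fewest peaks, lacked site 8 and had the others. Sites of a locus are not replicates, so the difference in held sites between the locus and the rest was not tested. The test of list shares above is of another quantity.

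The 10 FKBP5 sites that the MR/GR cell held were all in 3 of 3 treated GR-cell lists, as were 86.6% of its 5965 sites over the series. Of 12 sites in all 3 GR-cell lists, the MR/GR cell held 10, where the share over the series was 22.5% of 22935. The other 2, sites 2 and 10, were in no MR/GR-cell list, a class that made up 65.6% over the series. The 2 sites in exactly 2 GR-cell lists, sites 1 and 11, and the 2 in a single GR-cell list, sites 3 and 9, were in no MR/GR-cell list either. That is close to the series, where 90.3% of sites in exactly 2 GR-cell lists and 93.0% of those in 1 were in no MR/GR-cell list. Sites in all 6 treated lists were 9 of the 17 (52.9%, Wilson 95% interval 31.0 to 73.8), against 6.90% of 43713 sites with a treated peak over the series. Sites in a single treated list were 3 of the 17, or 17.6%, against 28.0%.

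Around FKBP5 the share of GR-cell sites held by the MR/GR cell was below that of the window and near that of the series, a count with no test. In the 1 Mb on either side of the window the GR cell held 27 sites, of which the MR/GR cell held 4, or 14.8% (Wilson 95% interval 5.92 to 32.5). Over the series it held 17.9%. On the 3′ side the MR/GR cell held 1 of 11 GR-cell sites, and on the upstream side 3 of 16. The nearest site past the 3′ edge of the window, 35483671 to 35484036, was in 2 lists of the GR cell and none of the MR/GR cell. The nearest past the upstream edge, 35750129 to 35750590, was in 3 GR-cell lists and 1 MR/GR-cell list. It starts 3.51 kb beyond the end of site 17, which all 6 treated lists had.

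**Figure D3:**
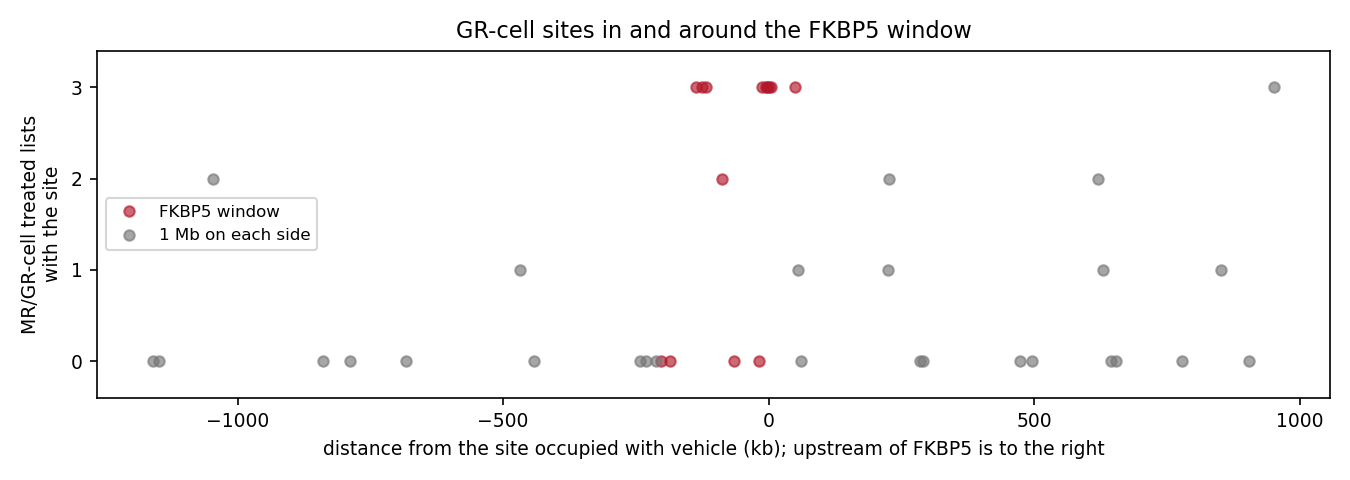
Each point is a site held by the treated GR cell, placed by distance in kb from site 15 and by the number of treated MR/GR-cell lists (0 to 3) that have it. Within the FKBP5 window 9 of 14 sites reach 3 lists, and over the 1 Mb stretches on both sides 1 of 27 does.

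The FKBP5 window was among the stretches of the genome with the most sites called in every treated list. It held 9, and of 11673 other windows of the same width tiled over chromosomes 1 to 22 and X, 81.3% held none and 1 held as many (0.00857%). None held as many sites of the MR/GR cell, and 17 windows held at least as many sites of the GR cell (0.146%). In those 17 windows the MR/GR cell held 7.14% to 52.9% of the GR-cell sites (median 28.6%), each below the 71.4% at FKBP5. This order depends on the window edges, since with 100 kb on each side of the gene the FKBP5 share was 52.6%. The FKBP5 window was set around a gene and the others by a fixed grid that can cut a cluster, so these counts describe and do not test. With 1 list left out, the number of other windows with at least as many was 0 without treated MR/GR-cell list 1 and 2 without treated GR-cell list 3.

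**Figure D4:**
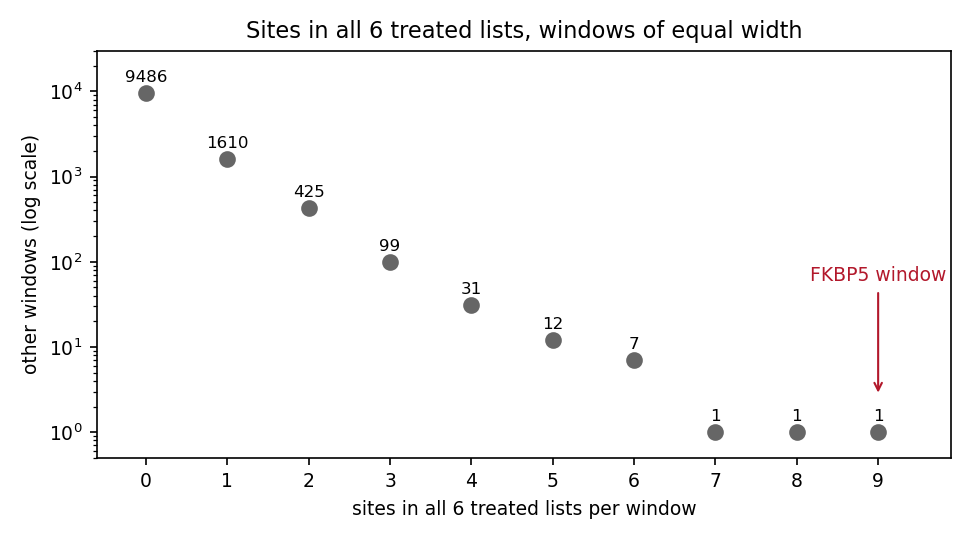
Number of other windows of 260 kb (log axis, with the count above each point) by how many sites in all 6 treated lists they hold. The FKBP5 window holds 9, a number reached by 1 other window.

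Without ligand, GR peaks at FKBP5 were seen in the GR cell and lay in the upstream group. The MR/GR cell with vehicle had 0 peaks in the window in each of its 3 lists, and the GR cell with vehicle had 1, 0 and 2. All 3 peaks fell on 2 sites that were in all 6 DEX lists. Over the series, 4.64% of 474 sites with a GR-cell vehicle peak were in all 6 DEX lists and 48.1% were held by the treated GR cell. Site 15 was called in vehicle lists 1 and 3 of the GR cell, and site 16 in list 3, without which it had no vehicle peak. Vehicle lists were short (11 to 132 peaks in the MR/GR cell and 122 to 238 in the GR cell), so binding under the calling threshold would not be listed.

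Vehicle peaks were rare at treated sites in general. At FKBP5, 2 of the 14 GR-cell sites had a peak in at least 1 GR-cell vehicle list, against 0.751% of the 30365 GR-cell sites over the series. Among the 3017 sites in all 6 treated lists, 22 had such a peak (0.729%), and 2 of them were sites 15 and 16. A peak in at least 2 GR-cell vehicle lists was found at 4 of the 3017, site 15 among them.

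Every DEX list of both lines had more FKBP5 peaks than any vehicle list of its line. In the MR/GR cell the means were 10.0 ± 1.00 peaks with DEX and 0 with vehicle, and in the GR cell 14.0 ± 2.00 with DEX and 1.00 ± 1.00 with vehicle (SD, n = 3 lists each). On the log2(peaks + 1) scale the response was 3.46 (SE 0.08) in the MR/GR cell and 3.04 (SE 0.48) in the GR cell. The exact permutation p was 0.1 in each (two-sided, the floor). All other peaks of the same lists gave 7.30 (SE 1.09) in the MR/GR cell and 7.38 (SE 0.35) in the GR cell. These sizes are not comparable with those of the window. There the few treated peaks cap the response on this scale, whatever the vehicle count. Whether the window responded less than the rest was not tested. In the GR cell the window held 0.0445% ± 0.00178 of the peaks of a list with DEX and 0.566% ± 0.491 with vehicle (SD, n = 3 lists each), the vehicle share resting on 3 peaks. Both responses in the window rest on the pseudocount, since the vehicle lists have few peaks or none here. With 0.5 in place of 1 they were 4.39 in the MR/GR cell and 3.55 in the GR cell. The MR/GR-cell response minus that of the GR cell was 0.42 (SE 0.48, exact permutation p = 0.52, two-sided, 400 arrangements), smaller than its error. It was 0.84 with the pseudocount of 0.5 (exact permutation p = 0.4, two-sided), 0.85 without GR-cell vehicle list 2, 0.06 without list 3, and 0.10 with 100 kb on each side of the gene.

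Where both lines had a site, they had it at nearly the same position. Peaks share a site only through overlap, which by itself limits how far apart their centres can lie. Over the 9 FKBP5 sites in all 6 treated lists the mean centres of the lines differed by 6.0 to 30.7 bp in size (median 13.0), against a median of 16.7 bp over the 3008 such sites elsewhere. The 6 centres of a site spanned 23 to 174 bp (median 52.0, against 69.0 elsewhere), within peaks that were 280 to 304 bp wide in the treated MR/GR cell and 354 to 424 bp in the treated GR cell. Site 15 was among the tightest, with centres spanning 28 bp. The widest was site 7, where MR/GR-cell list 2 lay at 110.5 bp and list 1 at -63.5 bp from the median centre, while the 3 GR-cell lists had an SD of 16.5 bp. The vehicle peaks of site 15 lay at -28 and -20 bp from its median treated centre, where the 6 treated centres ran from -19 to 9 bp. That of site 16 lay at -88.5 bp. All 3 vehicle peaks were thus on the lower side of the treated range of their site, though narrowly for the peak at -20 bp.

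**Figure D5:**
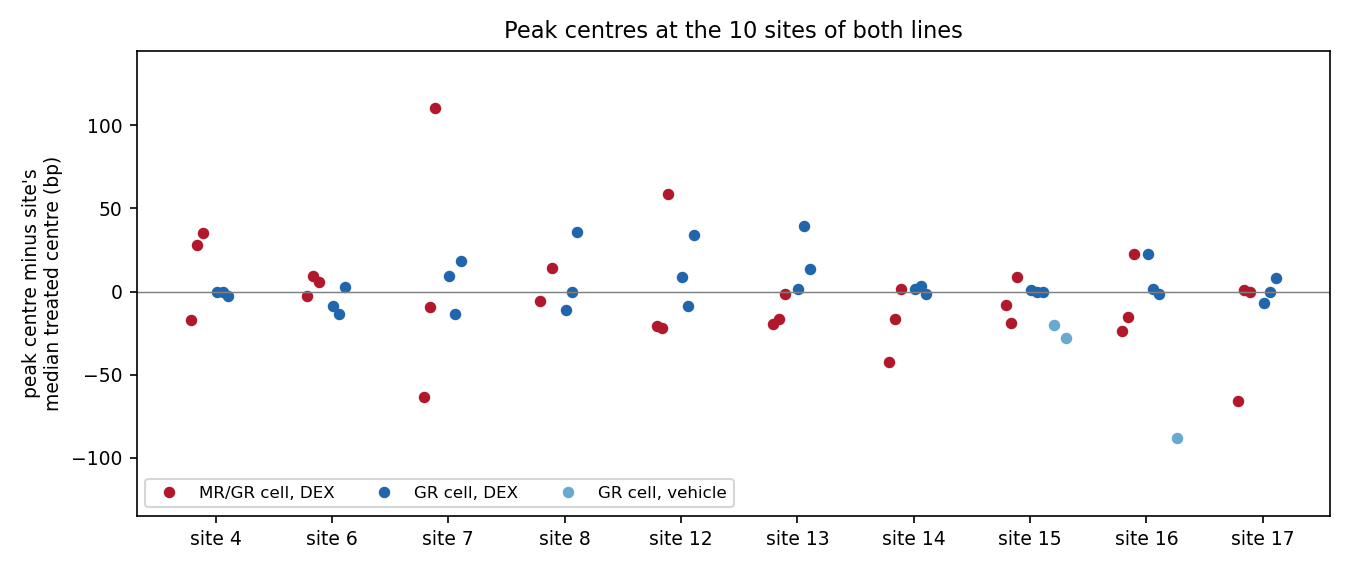
Peak centres at the 10 FKBP5 sites held by both lines, in bp from each site's median treated centre, with one point per list. Site 7 spans 174 bp through MR/GR-cell lists 1 and 2, and the vehicle peak at site 16 lies below all treated peaks there.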

How the data were processed

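The files used here are the authors' 12 deposited peak lists, 3 for each of 4 GR immunoprecipitations, and 2 input samples had no list. Each list gives a chromosome, a start and an end, with no height, score, fold or p-value, so peak strength and depth are unknown. Per the submitters' processing notes the build was hg19, and the tools named are HOMER 4.8.3, Picard 1.115, SAMtools 1.3.1, Bowtie and Trim Galore 0.4. Their roles and settings are not given in the sources used here. Per the file names, lists were called against input as factor peaks. The sample records give 100 nM DEX for 2 hr for the GR-cell input and no dose for the MR/GR-cell input. The part of this difference in the calls was not tested. All peaks of a list share 1 width, apart from 1 peak of a GR-cell list, and the width differs between lists, which affects overlap.

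Peaks of all 12 lists were merged where they overlapped by at least 1 bp, and a site belonged to the window where a peak centre lay in it. A line held a site with at least 2 of its 3 lists. The peak number of each list was compared on the log2(peaks + 1) scale, and shares as percent, with exact permutation tests (20 arrangements for 3 lists against 3, lines permuted within treatment for the difference of responses). Merging and holding were run on simulated data for treated and vehicle lists (2000 simulated sites, 100% of totals recovered). The simulated sites lay much further apart than the closest peaks of a real list (567 bp). Their centres were also spread less than those of site 7 (174 bp). With these settings overlap merging could not fail, so the run checks the code and not how close or spread peaks are merged. Every site of the window is given. The window, the site rules and the tests were chosen with earlier results of these data known. Receptor elements within the sites, introns, and the planned list of chaperone and receptor genes were not analysed here, since no genome or annotation of hg19 was used. Promoters come from RefSeq (GRCh38.p14), where FKBP5 matched 2 entries. Python 3.11.15, pandas 2.3.3, numpy 2.4.6, matplotlib 3.10.9 and SciPy 1.17.1 were used.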

Additional observations from a re-analysis of the deposited data

How the results depend on the processing

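Of 158 alternatives for 28 results, 155 kept the direction and, for counts and shares, stayed within a fixed ratio or the interval of the main value, and none reversed. Exact tests of 3 lists against 3 cannot pass 0.05, so for these only direction could change. A difference counted as kept at any size, as with the difference of responses at 0.06 without GR-cell vehicle list 3. Some alternatives were bound to be kept. The replicate block leaves a mean difference as it is, and the MR/GR-cell vehicle lists had no peak in the window to lose. The alternatives for the 17 named sites, and a pseudocount of 0.5 for the difference of responses, were added after seeing the data, and all 34 for the sites kept the number of treated lists. Leaving out 1 list gave 64.3% to 83.3% for the GR-cell FKBP5 sites held by the MR/GR cell, and 1 to 2 sites with a vehicle peak, the value of 1 without GR-cell vehicle list 3. The percent of other windows with at least as many sites in all treated lists was 0 with the grid of windows moved by 130000 bp, and 0 to 0.0171 with 1 list left out. Under a replicate block on list number the line difference stayed -0.44 and the share difference 0.121, and the two-sided exact sign-flip p of both was 0.25, the smallest that 3 pairs allow. The numbers come from the deposited lists, and nothing in the labels says that they pair. The difference between the lines was -0.30 without the flanks (exact permutation p = 0.2, two-sided). The share kept in the MR/GR cell was 81.8% without the flanks and 52.6% with 100 kb on each side of the gene.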

Other observations

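The windows of 260 kb outside FKBP5 with the most sites in all 6 treated lists were as follows, where 5 were to be named. Chromosome 20, 48880001 to 49140000, had 9, with 9 sites held by the MR/GR cell and 13 by the GR cell. Chromosome 11, 113880001 to 114140000, had 8, with 9 and 17. Chromosome 5, 159120001 to 159380000, had 7, with 8 and 10. Chromosome 5, 31980001 to 32240000, and chromosome 3, 14300001 to 14560000, had 6 each, with 8 and 7 sites of the MR/GR cell and 10 of the GR cell in both. These last windows are 2 of 7 with 6 such sites, and ties were ordered by the sites of the MR/GR cell and then of the GR cell.

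The close spacing at the upstream end of FKBP5 was counted after the sites had been seen. A stretch of 20 kb starting at a site in all 6 treated lists and holding at least 5 such sites was found at 3 of the 3017 sites, on 2 chromosomes, and 5 was the highest number in any stretch. The group formed by sites 12 to 16 of FKBP5 was 1 of the 3.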
